A study of Mus musculus with 4 samples.

Results

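The AP-1 genes Fos, Fosb, Fosl1, Fosl2, Jun, Junb, Jund and Atf3 were followed in mouse kidney cells after the hormone FGF23. These 8 members were taken by symbol from the 31053 genes in the deposited feature lists, whatever their values. The comparison asked which members were higher after FGF23 in tubule cells, and which were high or moved in cells of every kind, as genes switched on by tissue dissociation do.

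Droplet single-cell RNA sequencing was run on kidneys of C57BL/6 mice (C57BL/6J in the treatment protocol) aged 10 weeks. There were 4 libraries, 1 per group: a 0 h control at 0 µg per mouse, and 1, 4 and 12 h after an intraperitoneal dose of 10 µg of recombinant human FGF23 (rhFGF23) per mouse. Each library pools male and female kidneys, which were digested with enzymes and mechanically, cleared of red cells and depleted of annexin V-positive dead cells, so all 4 groups share the dissociation. The labels call the control 0 h, yet its matrix carries a saline 1 h name, and they do not settle whether its mice were injected. No group had a replicate, so no test across samples was possible. The 95% intervals below reflect the number of UMIs counted and take no account of variation between mice or digestions.

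AP-1 is a dimer of Fos and Jun proteins that binds DNA through a basic leucine zipper. Fos, Fosb, Jun, Junb and Atf3 are immediate early genes, switched on within minutes by growth factor signalling through ERK or by stress kinases such as JNK, and their RNAs are short-lived. Jund is usually expressed steadily, and Fosl1 and Fosl2 tend to follow later. FGF23 lowers renal phosphate reabsorption and vitamin D activation through FGF receptors joined to the co-receptor Klotho (gene Kl), and the same early genes also rise when tissue is held in warm enzyme solution.

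The matrices held 12245 to 13813 barcodes and 139675666 to 158838728 UMIs (counted RNA molecules) per library, and 8851 to 10221 cells per library were kept, at median depths of 8782 to 11177 UMIs. Cell classes were rebuilt from marker genes and carry the ending "-like". In proximal tubule-like (PT-like) cells, which made up 67.8% to 72.2% of cells, each of the 8 PT markers was higher than in the other cells (Slc34a1 at 3555 against 175 CPM, UMIs scaled to a common total), and the markers of the other classes used here behaved alike. Neutrophil-like cells fell from 3.75% and 3.68% of cells at 0 and 1 h to 0.773% and 0.596% at 4 and 12 h, and unnamed clusters held 3.37% to 4.17%. Pairs of libraries shared 36 to 57 cell barcodes, at most 0.465% of the smaller library.

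Where the hormone could act was read from Kl. At 0 h Kl stood at 1381 CPM in DCT/CNT-like cells (distal convoluted and connecting tubule). It was lower in PT-like cells (208 CPM) and in TAL-like cells of the thick ascending limb (161 CPM). Endothelial-like cells held 14.2 CPM of Kl and T-like cells 7.85 CPM. Endothelial-like cells therefore served as the main Kl-low comparison, and the levels of T-like cells are given beside them.

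The promoters of the members that passed the size rule described below against 0 h in PT-like, DCT/CNT-like or TAL-like cells are printed for their cyclic AMP response element (CRE) letters, since CREB and ATF proteins at such elements are a known route into Fos and Jun genes. Each window is the 250 bases before the RefSeq start site on GRCm38.p6, 5′ to 3′ on the gene's strand, with TGACG on either strand in capitals (in Jun, TGACATCA). Fos lies at chr12:85473890-85477273 on the plus strand, Fosb at chr7:19302696-19310051, Jun at chr4:95049034-95052222, Junb at chr8:84974484-84978718 and Atf3 at chr1:191170296-191218039, these last 4 on the minus strand (GENCODE M21).
Fos promoter, chr12:85473640-85473889: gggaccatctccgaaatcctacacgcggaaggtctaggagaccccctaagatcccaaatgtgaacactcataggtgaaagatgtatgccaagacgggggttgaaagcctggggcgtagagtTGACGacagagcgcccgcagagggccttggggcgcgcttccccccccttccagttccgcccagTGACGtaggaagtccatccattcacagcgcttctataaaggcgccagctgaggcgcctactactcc
Fosb promoter, chr7:19310046-19310295: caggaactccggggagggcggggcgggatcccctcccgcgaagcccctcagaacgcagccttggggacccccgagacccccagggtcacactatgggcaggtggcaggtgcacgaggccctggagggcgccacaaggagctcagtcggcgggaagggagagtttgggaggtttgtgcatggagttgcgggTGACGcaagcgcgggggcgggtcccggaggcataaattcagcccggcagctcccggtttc
Jun promoter, chr4:95052223-95052472: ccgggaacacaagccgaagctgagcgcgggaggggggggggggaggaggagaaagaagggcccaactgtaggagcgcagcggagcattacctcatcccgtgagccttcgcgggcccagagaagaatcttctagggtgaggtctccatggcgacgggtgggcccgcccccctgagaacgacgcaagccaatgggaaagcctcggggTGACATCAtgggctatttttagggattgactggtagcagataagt
Junb promoter, chr8:84978749-84978998: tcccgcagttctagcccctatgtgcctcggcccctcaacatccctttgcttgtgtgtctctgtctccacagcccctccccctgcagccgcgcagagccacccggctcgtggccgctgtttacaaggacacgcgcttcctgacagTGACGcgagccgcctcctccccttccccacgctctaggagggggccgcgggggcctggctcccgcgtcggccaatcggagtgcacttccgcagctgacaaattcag
Atf3 promoter, chr1:191183334-191183583: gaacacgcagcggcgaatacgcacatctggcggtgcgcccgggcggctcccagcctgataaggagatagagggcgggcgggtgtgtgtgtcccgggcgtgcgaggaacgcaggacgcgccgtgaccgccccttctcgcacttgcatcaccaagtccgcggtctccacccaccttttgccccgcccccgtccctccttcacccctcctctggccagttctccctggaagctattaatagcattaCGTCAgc
A promoter entry was found for 7 of the 8 members. TGACG was searched on both strands and lay in 4 of them: in Fos at -129 and -66, in Fosb at -60, in Junb at -106 and in Atf3 at -7 (reverse strand), counted from the start site. Of 32851 promoter windows of this length, 17.8% held TGACG. Jun held TGACATCA at -45, which 2.93% of windows did. The full CRE TGACGTCA, which contains TGACG, was in no member window and in 1.55% of all windows. The AP-1 site TGANTCA was in no member window and in 6.75% of all, and the CArG box bound by SRF was in none and in 1.47% of all. Sequence outside these windows was not searched, so a site further upstream would not be seen. The Atf3 window sits at the RefSeq start, inside the longer GENCODE gene.

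For each class, the UMIs of a library were added up and scaled to CPM. A gene counted as higher or lower when its CPM differed at least 2-fold from 0 h and it had at least 20 UMIs over both libraries. The 1, 4 and 12 h comparisons all share the 0 h library. Fosl1 did not reach 20 UMIs in any class with 100 cells per library. In those classes (PT, DCT/CNT, TAL, endothelial and T) the median log2 ratio of all genes lay between -0.10 and 0.07.

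**Figure D1:**
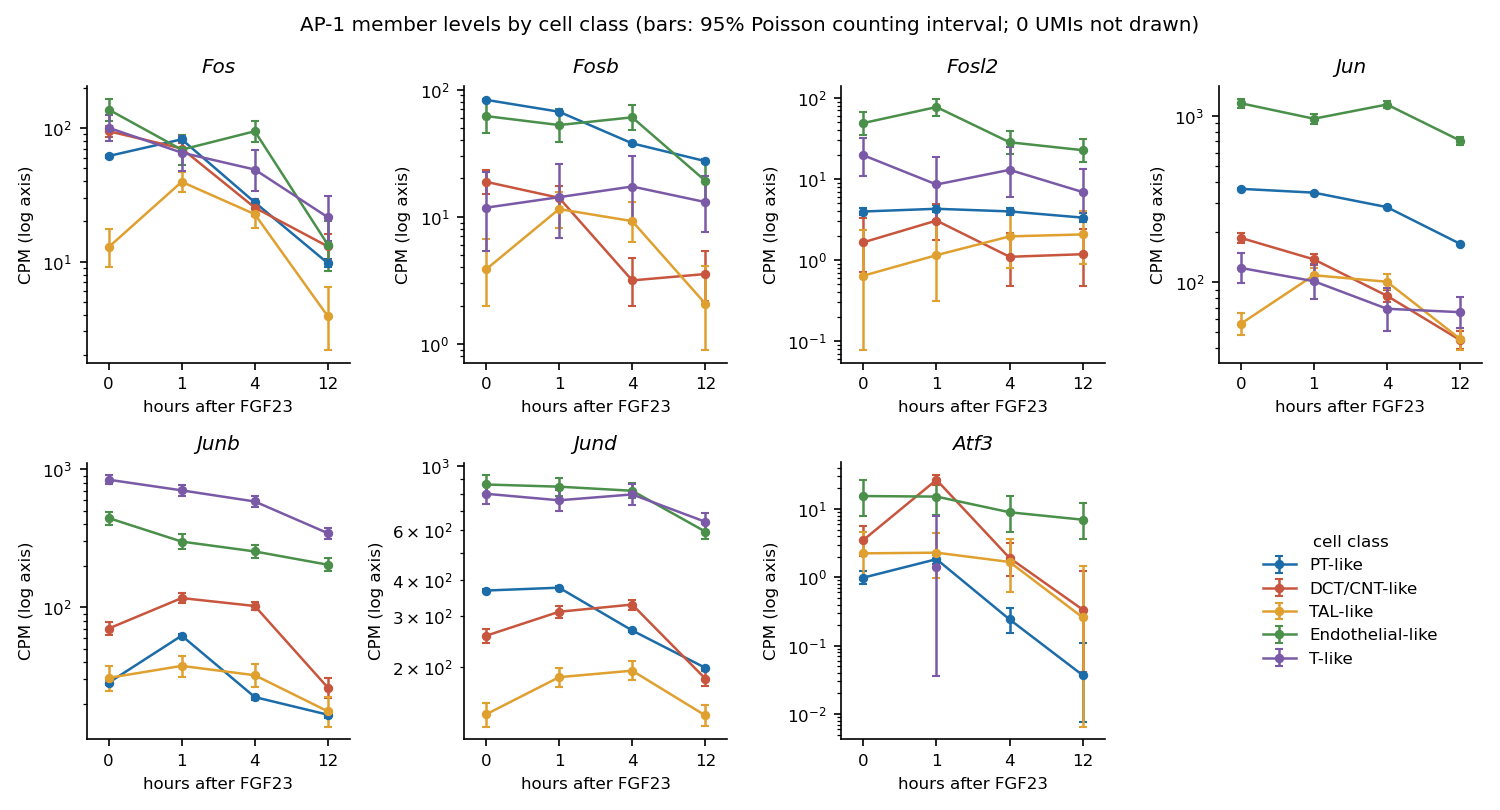
CPM of 7 AP-1 members (log axis) at 0, 1, 4 and 12 h in 5 cell classes, with points for 1 library each and bars for the 95% Poisson counting interval. Junb in PT-like cells and Atf3 in DCT/CNT-like cells peaked at 1 h, and Fos was at its lowest at 12 h in each class drawn.

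Among the Fos members, Fos itself was not higher at 1 h in PT-like cells by the size rule. In order of time (0, 1, 4 and 12 h, as in every series below) its level was 61.9, 82.5, 27.8 and 9.72 CPM. The 1 h log2 ratio was 0.42 (0.37 to 0.47), and Fos was lower at 4 h (-1.15) and at 12 h (-2.67, -2.78 to -2.56). In DCT/CNT-like cells, the class with the most Kl, Fos ran 95, 70.4, 25.4 and 13.0 CPM. That series declined at each step, with log2 ratios of -0.43 at 1 h, -1.90 at 4 h and -2.87 at 12 h.

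Among the whole classes described here, Fos passed the size rule as higher at 1 h only in TAL-like cells. Its level there was 12.8, 39.6, 22.7 and 3.88 CPM, from 40, 138, 81 and 15 UMIs. The 1 h log2 ratio was 1.63 (1.11 to 2.17). Fosb, a close relative whose splice forms include the truncated deltaFosB, took the same course there at 3.85, 11.5, 9.23 and 2.07 CPM. Its log2 ratio was 1.58 (0.62 to 2.64) at 1 h, resting on 12 UMIs at 0 h and 40 at 1 h. Both TAL results depended on which cells were counted. With cells limited to 25% mitochondrial UMIs the Fos ratio was 0.84, and the male-called cells of TAL-like clusters gave 0.47 (24 and 50 UMIs) against 3.01 in female-called cells (7 and 56 UMIs).

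Endothelial-like cells gave the opposite sign for Fos at 1 h. Fos ran 138, 69.0, 94.9 and 13.4 CPM, and the 1 h log2 ratio was -1.0 (-1.48 to -0.53), at the edge of the 2-fold rule and just inside it. Sexes did not share this sign, with -2.12 for male-called cells (41 and 11 UMIs) and 0.98 for female-called cells (13 and 33 UMIs). In T-like cells Fos ran 101, 65.6, 49.0 and 21.5 CPM.

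Fosb in PT-like cells was lower at the later times, at 83.1, 67.0, 37.8 and 27.4 CPM. PT-like make-up also shifted with time. PT-S3-like cells (segments are described below) were 2834, 2332, 2563 and 1819 of 6744, 6378, 7377 and 6483 PT-like cells. A PT-S3-like cluster with Fosb among its leading genes held 253, 251, 188 and 89 barcodes, doublet calls included. Fosb passed as lower in each segment at 12 h, but only in PT-S3-like cells at 4 h. How much of the fall came from this shift was not tested. Fosb had log2 ratios of -0.31 at 1 h, -1.14 at 4 h and -1.60 at 12 h. In the DCT/CNT-like class it ran 18.8, 14.1, 3.16 and 3.54 CPM, with -2.58 at 4 h and -2.41 at 12 h. Fosl2 (Fra-2, chr5:32135801-32157842) was nearly level in PT-like cells, at 3.97, 4.29, 3.98 and 3.34 CPM. In DCT/CNT-like cells as a whole Fosl2 did not pass at 1 h, and it was lower at 4 h than at 1 h (2.94% of genes). Among the DCT/CNT-like cells rich in the RNA Malat1 (described below), it was higher at 1 h (1.38% of genes). In endothelial-like cells Fosl2 ran 49.0, 77.2, 28.4 and 22.7 CPM, highest at 1 h with a log2 ratio of 0.66 (0.06 to 1.27), and passed the rule at 12 h as lower (-1.11).

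Fosl1 (Fra-1) was nearly absent from the libraries. Over all kept cells it had 2, 6, 29 and 0 UMIs. At 4 h, 18 of the 29 UMIs came from 3 of the 71 cells of an unnamed cluster led by C3, Cp and Dcn. PT-like cells held 0, 1, 7 and 0 of them, so no direction is given for this gene. The gene lies at chr19:5447547-5455946.

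Of the Jun members, Junb rose at 1 h in PT-like cells. JunB often opposes c-Jun on shared targets. Junb ran 28.4, 62.3, 22.3 and 16.6 CPM, from 2524, 5706, 2216 and 1351 UMIs. The 1 h log2 ratio was 1.13 (1.07 to 1.2), and the later values of -0.35 and -0.77 stayed within 2-fold. The 1 h value did not pass in male-called PT-like cells (0.81). It was the only 1 of 7 members with enough UMIs that passed as higher, where 0.859% of 13620 genes did, and 0 members were lower (1.64% of genes). After thinning each cell to 2000 UMIs, 4.44% of PT-like cells had a Junb UMI at 0 h and 10.7% at 1 h, against 17.5% and 44.2% unthinned. T-like cells, which make Junb, stood at 56.1% and 45.7% thinned, and no class could be named as lacking the gene. Median depths were 12127 and 12985 UMIs in PT-like and 2835 and 3099 in T-like cells.

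The Junb ratio differed between the proximal tubule segments, which also differ in sex. In PT-S1/S2-like cells (the early segments) the 1 h log2 ratio was 1.75 (1.63 to 1.86), and in PT-S3-like cells (the straight, late segment) it was 0.77 (0.69 to 0.86), inside 2-fold. The difference between the segments was 0.97 (0.83 to 1.12). Of the sex-called cells at 0 h, 1381 were female and 1099 male in PT-S1/S2-like cells, against 79 and 2036 in PT-S3-like cells. Within 1 sex, among cells rich in the RNA Malat1 (described below), the segment difference was 0.57 (0.36 to 0.77) when called male and 0.12 (-0.44 to 0.67) when called female. Junb in DCT/CNT-like cells ran 70.1, 117, 102 and 26.1 CPM, with log2 ratios of 0.73, 0.54 and -1.42. There the clusters differed. In the cluster led by Slc12a3, the thiazide-sensitive sodium chloride cotransporter, the 1 h ratio was 1.05 (0.83 to 1.27). In the clusters led by S100g, which held the most Kl (2705 CPM at 0 h), it was -0.11 (-0.51 to 0.29). The S100g-led clusters supplied 122, 147, 223 and 241 of the 446, 435, 573 and 510 DCT/CNT-like cells.

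Jun was high in PT-like cells before treatment and did not move at 1 h. It ran 363, 345, 282 and 170 CPM, with log2 ratios of -0.08, -0.37 and -1.10. With cells split by their Malat1 RNA (described below), Jun at 12 h passed neither in Malat1-rich (-0.93) nor in Malat1-poor cells (0.09), though it did in the Malat1-rich cells called male. Malat1-poor cells were 34.9% of PT-like cells at 0 h and 46.1% at 12 h. Its levels in endothelial-like cells were 1187, 958, 1166 and 708 CPM. In TAL-like cells Jun ran 56.1, 110, 100.5 and 45.6 CPM, a 1 h log2 ratio of 0.97 (0.71 to 1.24) just inside 2-fold. Among DCT/CNT-like cells it fell at 4 h (-1.16) and 12 h (-2.04), from 184 through 137 and 82.7 to 44.9 CPM.

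Jund (chr8:70698949-70700616) was the only Jun member that passed the size rule in none of the 5 classes. In PT-like cells it ran 369, 377, 267 and 198 CPM, and in T-like cells 802, 761, 798 and 640 CPM. Its largest ratio in these classes was -0.90 in PT-like cells at 12 h, a larger fall than that of Junb there. Among Malat1-rich PT-S3-like cells (Malat1 is described below), Jund was lower at 12 h by the rule (2.62% of genes).

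Atf3, a stress-induced relative that pairs with Jun proteins, gave the largest 1 h rise of the members in the classes described here. Its level in DCT/CNT-like cells was 3.52, 26.7, 1.92 and 0.337 CPM, from 17, 148, 14 and 2 UMIs. The 1 h log2 ratio was 2.93 (2.20 to 3.74), a 7.60-fold rise, and 1.32% of 10571 genes passed as higher in that comparison (1.72% as lower, with 0 members). It reached 20 UMIs only through the 1 h library. Atf3 was the single member of 7 that passed there. Most of its UMIs came from the Slc12a3-led cluster, with 16 at 0 h and 137 at 1 h (3.05, 2.30 to 3.90). The S100g-led clusters held 1 and 11 UMIs, a log2 ratio of 2.98 with a counting interval from 0.20 to 8.41.

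PT-like cells held little Atf3, at 0.990, 1.85, 0.242 and 0.0370 CPM (88, 169, 24 and 3 UMIs). The 1 h log2 ratio of 0.90 (0.52 to 1.29) did not pass, and Atf3 was lower at 4 h (-2.03) and 12 h (-4.74, -7.05 to -3.15). Both collecting duct classes had under 100 cells in some library. In IC-like cells (intercalated, 72 to 231 cells) Atf3 had 10 UMIs at 0 h and 50 at 1 h, a log2 ratio of 1.65 (0.65 to 2.79), where 2.66% of genes passed as higher. In PC-like cells (principal, 58 to 113 cells) it had 8 and 25, a ratio of 2.06 (0.87 to 3.42), where 2.2% did. IC-like cells are poor in Kl (54.2 CPM at 0 h). In endothelial-like cells Atf3 ran 15.5, 15.2, 8.96 and 6.98 CPM on 12 or 13 UMIs per library, and T-like cells had 1 Atf3 UMI in all, at 1 h.

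**Figure D2:**
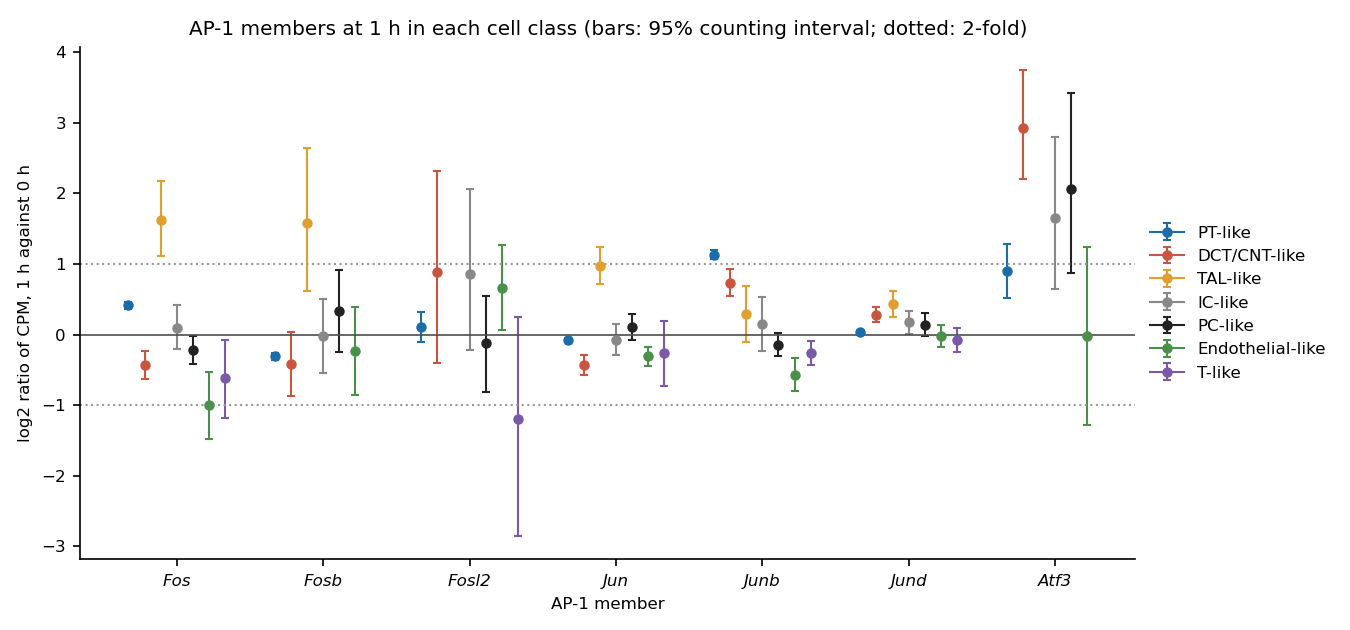
Log2 ratio of CPM at 1 h against 0 h for 7 AP-1 members in 7 cell classes, with 95% counting intervals, a dotted line at 2-fold, and members under 20 UMIs left out. Atf3 lay above the upper line in DCT/CNT-like, PC-like and IC-like cells, Fos and Fosb in TAL-like cells and Junb in PT-like cells.

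At 1 h the Kl-bearing tubule classes were set against endothelial-like cells by subtracting log2 ratios. For Junb, PT-like cells exceeded endothelial-like cells by 1.70 (1.46 to 1.94) and DCT/CNT-like cells did by 1.30 (1.00 to 1.60), since Junb ran 444, 299, 254 and 204 CPM in endothelial-like cells (1 h ratio -0.57). Against immune-like cells without neutrophils the Junb differences were 1.13 and 0.73, and against IC-like cells 0.99 and 0.59. For Atf3, DCT/CNT-like cells exceeded endothelial-like cells by 2.95 (1.61 to 4.30) and IC-like cells by 1.28 (0.06 to 2.50). For Fos, TAL-like cells exceeded endothelial-like cells by 2.63 (1.94 to 3.31). Fosb, Jun and Jund gave no rise past 2-fold at 1 h in PT-like or DCT/CNT-like cells.

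The 12 h library was low in these genes in nearly every class. Fos was lower there by the rule in all of PT-like, DCT/CNT-like, TAL-like, IC-like, PC-like, endothelial-like and T-like cells, with log2 ratios from -1.61 in PC-like to -3.37 in endothelial-like cells. In PT-like cells 4 of 7 members were lower at 12 h (Fos, Fosb, Jun and Atf3), where 2.64% of genes were. The segments differed: 3 were lower in PT-S1/S2-like cells (Fos, Fosb and Atf3; background 1.5%). In PT-S3-like cells 5 were, Jun and Junb among them (background 2.73%). For DCT/CNT-like cells it was 4 of 5 (Fos, Fosb, Jun and Junb; background 2.39%), and in endothelial-like cells 5 of 7 (Fos, Fosb, Fosl2, Junb and Atf3; background 1.92%). T-like cells had 3 lower members (Fos, Fosl2 and Junb; 2.96%), IC-like cells 4 (Fos, Fosb, Jun and Junb; 1.81%), PC-like cells 3 (Fos, Fosl2 and Junb; 2.91%) and TAL-like cells 1 (Fos; 1.11%). No member was higher at 12 h in PT-like, DCT/CNT-like, TAL-like, endothelial-like or T-like cells, where 2.83%, 2.73%, 1.2%, 2.79% and 1.78% of genes were. Neutrophil-like cells were the exception among the classes named here: Fos ran 4729, 5935, 5587 and 4767 CPM, Junb 4517, 5592, 5779 and 5214 CPM, and 0 members passed in either direction at any time. Of all genes in that class 2.51%, 8.27% and 9.72% were higher at 1, 4 and 12 h, and 2.73%, 8.19% and 9.11% lower.

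At 4 h the picture lay between. In PT-like cells Fos, Fosb and Atf3 were lower (background 2.78%) and 0 members higher (3%). Among DCT/CNT-like cells Fos, Fosb and Jun were lower (4.15%) and 0 members higher (3.28%). TAL-like cells still had Fosb higher (1.32%) and 0 members lower (1.46%). At 1 h, the 2 of 5 members higher in TAL-like cells (Fos and Fosb) stood beside 1.16% of genes, with 0 lower beside 0.682%. At both times Fosb reached the UMI minimum there only through the later library. In endothelial-like cells 0 of 7 members passed in either direction, at 1 h (2.27% of genes higher, 1.48% lower) or at 4 h (2.73% and 2.52%). T-like cells had Fosl2 lower at 1 h on 15 and 6 UMIs (2.48%) and Fos lower at 4 h (2.74%), with 0 members higher (2.3% and 2.78% of genes).

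Dissociation was looked at through 12 heat shock genes and 17 other early genes. The 17 include genes such as Egr1 that also respond to ERK, so this list cannot tell dissociation from FGF23 signalling. In PT-like cells as a whole the heat shock genes summed to 4834, 4713, 5358 and 5000 CPM, and 0 of 12 passed the rule at any time. Parts of the class did differ. In PT-S3-like cells Hspa1a, Hspa1b and Hspb1 were higher at 4 h, with sums of 4789 CPM at 0 h and 6237 CPM at 4 h. At 12 h Hspa1a was lower in PT-S1/S2-like cells, and Hspa1a and Hspa1b were lower in Malat1-poor PT-like cells. In all PT-like cells the other early genes summed to 537, 800, 378 and 260 CPM. At 1 h Egr1 (3.27), Ier2 (1.72) and Klf6 (1.18) were higher and Cebpd lower (-1.08) among 17, and at 12 h 8 of 16 were lower. In DCT/CNT-like cells the other early genes summed to 950, 1869, 1268 and 725 CPM. At 1 h Nr4a1 and Egr1 were higher there and Gadd45b lower, and 0 heat shock genes passed. In TAL-like cells the other early genes summed to 368, 499, 469 and 294 CPM. Ier2, Klf6 and Egr1 were higher there at 1 h, and of the heat shock genes Hspb1 was higher at 1 and 4 h. In endothelial-like cells the other early genes summed to 4903, 5323, 4513 and 3597 CPM, with 0 of 17 past the rule at 1 h. Over 20 points (5 classes by 4 libraries, which share libraries and depth), Pearson r with the summed other early genes was 0.90 for the log2 level of Junb. It was 0.90 for Jund, 0.83 for Fosl2 and 0.60 for Fos. With heat shock it was 0.29 for Junb and 0.57 for Jund. Fosb had 0.71 with heat shock and 0.36 with the other early genes, Jun 0.52 and 0.54, and Atf3 -0.04 and 0.56. The sums of other early genes differed more between endothelial-like and PT-like cells than over time within either. These r values do not separate class from time. These correlations are descriptions without a test.

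Fos, Fosb, Jun and Jund were found more often in PT-like cells that held heat shock RNA in each library, while Junb varied by library. In PT-like cells with at least 0.2% of UMIs from Malat1 (described below) and thinned to 2000 UMIs, 233 cells at 0 h had an Hspa1a or Hspa1b UMI and 4012 did not. Jun was found in 79.4% of the first and 38.9% of the second. For Fosb the shares were 40.3% and 14.5%, for Fos 25.8% and 10.6%, and for Junb 13.7% and 5.31%. At 1 h the Fos shares were 36.5% and 12.1%, and those of Junb 17.8% and 11.8%. At 4 h the Junb shares were 5.30% (3.06% to 8.46%) and 4.76% (4.13% to 5.46%). Atf3 at 0 h was in 0 of the 233 cells and in 0.224% of the others, and Fosl2 was in 1.29% and 0.823%, with overlapping intervals. Junb was paired with Egr1 too: at 0 h 27.2% of 184 cells with Egr1 had Junb against 4.80% of the rest. At 1 h these were 17.0% of 1339 cells and 9.95%. All of these cells come from single libraries, so the shares describe those libraries.

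The other genes of the pathway were taken from fixed lists. Of 15 genes on the ERK and JNK route (kinases, SRF, ELK and CREB1), 14 had enough UMIs in PT-like cells and 0 passed at 1, 4 or 12 h. Of 12 AP-1 partners, Maff (1.28), a small Maf protein, and Ddit3 (1.11), the stress factor CHOP, were higher at 1 h in PT-like cells. Jdp2 (-2.04), a repressor of AP-1, was lower on 20 and 5 UMIs. The DCT/CNT-like class had Maff (1.80), Mafk (1.21) and Ddit3 (1.25) higher and Jdp2 (-1.78) lower. In TAL-like and endothelial-like cells 0 partners passed at 1 h. The median over the list was 0.24 in PT-like and 0.16 in DCT/CNT-like cells at 1 h, beside 0.01 and -0.03 over all genes.

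Of 18 genes known as AP-1 targets in other cells, 11 could be judged in PT-like cells at 1 h and 3 were higher: Hbegf (2.46), an EGF receptor ligand, Hmox1 (1.46), the haem oxygenase, and Sprr1a (1.60). The list median was 0.24. The same 3 were higher among 7 in DCT/CNT-like cells. Hbegf there ran 4.76, 280, 246 and 15.5 CPM (log2 ratio 5.88 at 1 h, 5.29 to 6.54), so it was still high at 4 h when Atf3 was back near its 0 h level. Sprr1a, a small proline-rich protein gene, had 0, 22, 351 and 50 UMIs in that class. At 4 h in PT-like cells Hmox1 (2.76), Plaur (2.21) and Itga5 (1.11) were higher and Ccnd1 lower (-1.08). In endothelial-like cells at 1 h 0 were higher and Spp1 was lower. Whether AP-1 acted on these genes was not tested.

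Neutrophil RNA moved with the comparison and is given for that reason, since neutrophil-like cells are rich in Fos and Junb. The 6 neutrophil markers summed to 12.8, 8.05, 2.26 and 1.45 CPM in PT-like cells, with 0 of 6 at 0 UMIs in each library. In the DCT/CNT-like class they summed to 116, 42.1, 2.06 and 1.52 CPM, with 0, 0, 1 and 3 of 6 at 0 UMIs, and in the S100g-led clusters to 352 CPM at 0 h and 6.72 CPM at 1 h. Fos moved with them in those clusters, from 104.5 to 40.8 CPM (-1.36, -1.75 to -0.97), and was level in the Slc12a3-led cluster (-0.04, -0.27 to 0.20). The part of neutrophil RNA in that fall was not tested. When a share of each library's summed profile was subtracted until S100a8 and S100a9 reached 0, the 1 h ratio was 1.16 for Junb in PT-like cells and 3.03 for Atf3 in DCT/CNT-like cells, as large as without it. Under the same subtraction the members lower at 4 and 12 h were as before in both classes (3 and 4 of them). The share subtracted was uneven in DCT/CNT-like cells, at 12.7%, 5.16%, 1.12% and 1.44% of UMIs. In PT-like cells it was 1.30%, 0.899%, 1.32% and 1.17%.

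PT-like cells were split by Malat1, a long noncoding RNA kept in the nucleus, and the members followed it closely. Malat1 made up under 0.2% of UMIs in 10545 of 26982 PT-like cells (39.1%), called Malat1-poor. The limit was chosen after the distribution had been seen and gives a range, not a cell type. Only 716 cells (2.65%) lay near it. The Malat1-poor share was 34.9%, 36.0%, 39.3% and 46.1% in order of time. At 0 h Malat1-poor cells had a median of 7955 UMIs and Malat1-rich cells 14985.

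**Figure D3:**
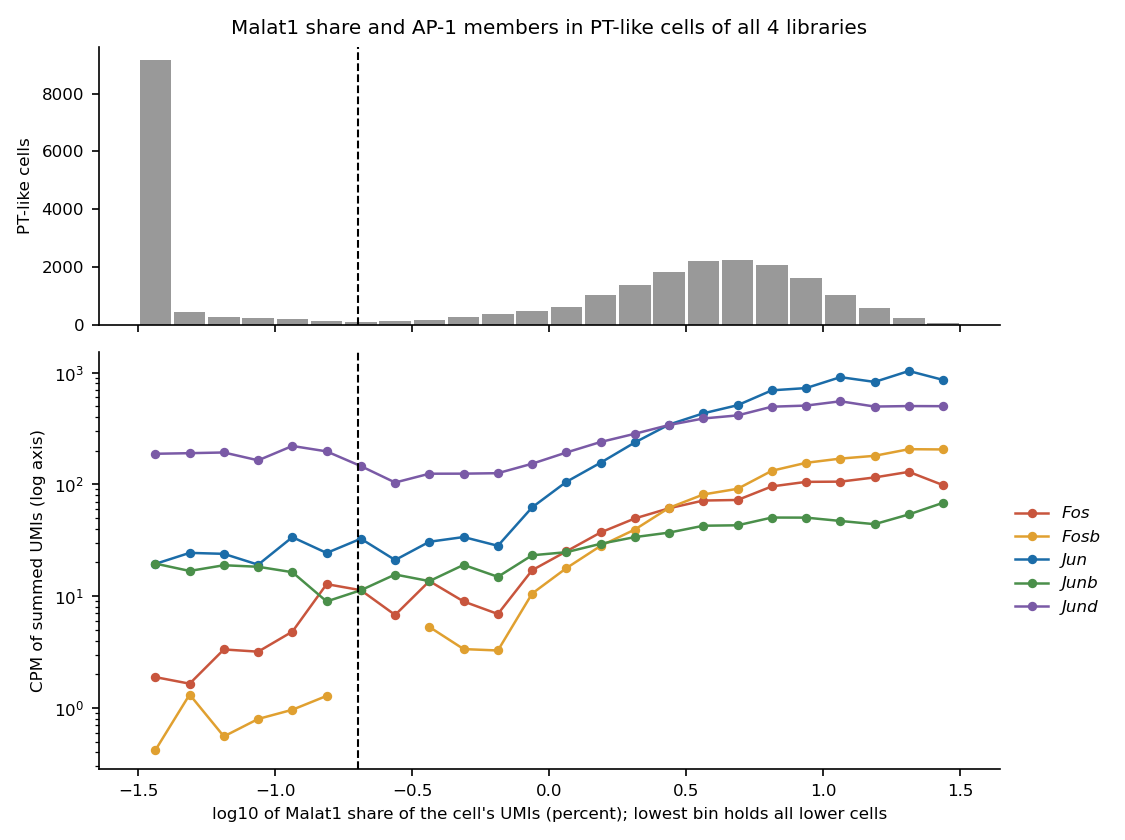
PT-like cells of all 4 libraries by their Malat1 share of UMIs (log10 percent), as cell numbers above and as CPM of 5 AP-1 members below (log axis), with the dashed line at 0.2%. Fosb climbed from 0.419 CPM in the lowest bin, which holds 9155 cells, to 206 CPM near the top, while Jund went from 188 to 502 CPM.

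At 0 h the members fell into groups by this ratio. Fosb was 152-fold higher in Malat1-rich than Malat1-poor cells, Jun 33.7-fold and Fos 30.1-fold. Atf3 was 26.9-fold higher on 87 UMIs against 1, a log2 ratio of 4.75 (2.24 to 10.1). Junb was 5.61-fold higher, Fosl2 2.12-fold and Jund 2.02-fold. Across 10906 genes the median log2 ratio was 0.38, 22.3% of genes were at least 2-fold higher in Malat1-rich cells and 2.02% at least 8-fold. Fosb, Jun, Fos and Atf3 each exceeded over 99% of those genes (99.7%, 99.3%, 99.2% and 99.2%), Junb exceeded 96.9% and Jund 78.3%. The heat shock genes as a sum were alike at 0 h, with 5234 CPM in Malat1-poor and 4710 CPM in Malat1-rich cells, though stress-inducible Hspa1a was 7.98-fold and Hspa1b 5.34-fold higher in Malat1-rich cells.

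The 1 h rise of Junb was larger in the Malat1-poor cells. There Junb ran 6.28, 44.6, 15.0 and 12.7 CPM, from 132, 1014, 420 and 344 UMIs. The log2 ratio to 0 h was 2.83 (2.57 to 3.1), then 1.25, then 1.02, so Junb was higher each time. It was the 1 member of 6 that was higher at 1 h (background 1.08%), at 4 h (2.94%) and of 5 at 12 h (2.56%). In Malat1-rich cells Junb ran 35.2, 68.1, 25.2 and 18.6 CPM, with 0.95 (0.88 to 1.02) at 1 h, just inside 2-fold, and 0 of 7 members higher (background 0.77%). Junb at 1 h was thus 1.53-fold apart between the cell groups, from 5.61-fold at 0 h.

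Egr1, the ERK-responsive zinc finger gene, showed the same narrowing. It went from 27.7 to 231 CPM in Malat1-rich and from 0.666 to 127 CPM in Malat1-poor cells, so that the 41.6-fold gap of 0 h was 1.82-fold at 1 h. Fos and Jun kept most of their gap. Fos ran 80.2, 108, 38.2 and 14.4 CPM in Malat1-rich and 2.66, 4.36, 1.39 and 0.444 CPM in Malat1-poor cells, a 24.9-fold gap at 1 h. Jun ran 471, 450, 383 and 247 CPM against 14.0, 24.2, 25.6 and 14.9 CPM, an 18.6-fold gap at 1 h. In Malat1-rich cells Fos, Fosb and Atf3 were lower at 4 h (background 2.6%) and at 12 h (2.28%). In Malat1-poor cells Fosb was lower at 4 h (9 against 15 UMIs, 1.68%) and Fos at 12 h (1.71%). What sets a cell's Malat1 share, and its part in these ratios, was not tested.

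**Figure D4:**
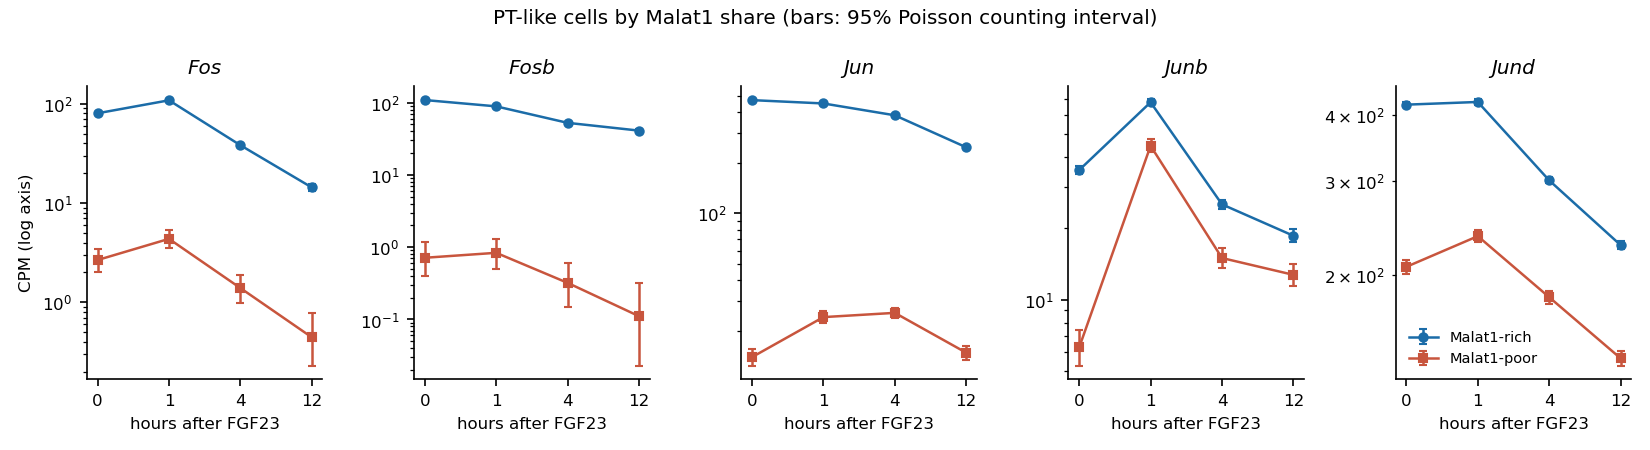
CPM of 5 AP-1 members (log axis) over time in Malat1-rich and Malat1-poor PT-like cells, with 95% Poisson counting intervals. The curves of Fos, Fosb and Jun stay far apart, while those of Junb nearly meet at 1 h (68.1 and 44.6 CPM).

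Each library pools both sexes, and cells were called female from Xist or male from Y-linked genes. Xist RNA is also nuclear and only 4.07% to 4.55% of called Malat1-poor cells were called female, so the sexes were compared in Malat1-rich cells, where 36.7%, 40.5%, 46.3% and 45% of called cells were female. Junb was 18.6 CPM at 0 h in female-called and 41.3 CPM in male-called cells, and 67.6 and 67.9 CPM at 1 h. These give a log2 ratio of 1.86 (1.69 to 2.04) for the female-called cells, and of 0.72 (0.63 to 0.80) for those called male. Fos rose from 70.3 to 149.7 CPM when called female (1.09), and had 83.1 and 89.6 CPM when called male (0.11). Atf3 gave 1.14 and 0.88. Segment moves with sex here: at 0 h 1359 of the 1428 female-called cells but 856 of the 2463 male-called cells were PT-S1/S2-like. Among PT-S1/S2-like cells alone Junb gave 1.91 when called female, and 1.16 (0.98 to 1.35) when called male, a difference of 0.75 (0.49 to 1.01) where all PT-like cells gave 1.14 (0.95 to 1.34). Fos gave 1.05 and -0.14 there.

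Fosb, Jun and Jund had opposite signs at 1 h. Fosb was 0.45 in female-called and -0.54 in male-called cells, Jun 0.39 and -0.28, and Jund 0.34 and -0.11. The signs were also opposite among PT-S1/S2-like cells alone, at 0.40 and -0.99 for Fosb, 0.36 and -0.57 for Jun and 0.32 and -0.18 for Jund. Among PT-S3-like cells, where few were called female, the values were 1.59 and -0.36, 0.59 and -0.17, and 0.38 and -0.09. Fosb there rested on as few as 32 UMIs in a library. Fos, Junb and Atf3 were higher at 1 h in female-called cells (1.03% of genes). In male-called cells 0 members were (0.841%), but with the segments apart 1 passed in each: Junb in PT-S1/S2-like (0.911%) and Atf3 in PT-S3-like cells called male (1.09; 0.702%). In Malat1-rich DCT/CNT-like cells Atf3 had 11 UMIs at 0 h and 127 at 1 h in female-called cells (3.51, 2.62 to 4.55), and 3 and 13 UMIs in male-called cells (1.57, -0.29 to 4.02), under the UMI minimum. Fos there gave 0.28 and -1.46. Cells of each sex come from the mice of that sex in 1 pool, so sex and mouse cannot be told apart, and the part of the segments was not tested beyond these values.

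**Figure D5:**
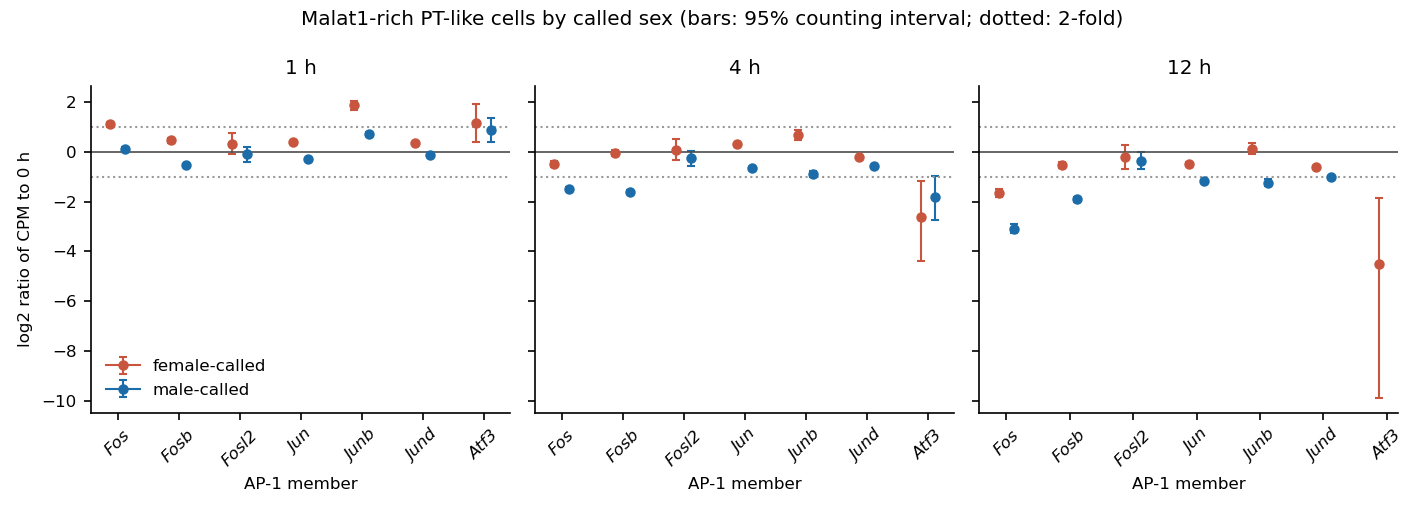
Log2 ratio of CPM to 0 h for 7 AP-1 members in female-called and male-called Malat1-rich PT-like cells at 1, 4 and 12 h, with 95% counting intervals and dotted lines at 2-fold. Members under 20 UMIs and male-called Atf3 at 12 h, which had 0 UMIs, are not drawn, and for Fos, Fosb, Jun, Junb and Jund the female-called value lay above the male-called value at each time.

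The genes whose level most resembled each member were ranked over the same 20 points among 11484 genes, by Pearson correlation of log2(CPM + 1). For Fos they were Nipa2 (0.77), Zfp36 (0.73) and Mapk6 (0.71). For Jund they were Wdr82 (0.96), Hnrnpm (0.95) and Ddx5 (0.95), and for Fosl2 Ccdc9 (0.96), Fam133b (0.96) and Fas (0.96). For Atf3 they were Zmym5 (0.94), Zfp36l1 (0.88) and Clock (0.87). For Fosl1, near 0 throughout, they were Txnrd1 (0.74), Aqp8 (0.74) and Hmox1 (0.70). Among the members, Junb and Jund were most alike (0.91), then Fosl2 and Jund (0.88) and Fosb and Jun (0.84).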

How the data were processed

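Single cells from 4 mouse kidney libraries were counted by the authors with Cell Ranger 3.1.0 (with STAR and Seurat also named) on mm10, per the submitters' processing notes. What was deposited is the unnormalized UMI count of each gene in each barcode, with 1 matrix per library.

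Barcodes needed at least 300 genes and at most 50% mitochondrial UMIs. Doublets were scored against simulated doublets (30 neighbours, 0.8% per 1000 cells) and removed (6.61% to 8.08% of barcodes). Cells were clustered by the Leiden method (leidenalg 0.10.2, resolution 1.5, 30 components, 2000 variable genes) without the members and list genes. The 54 clusters were named from marker lists, needing 3 markers on, and 14 stayed unnamed. These names may differ from the study's. Counts were summed per class and library. CPM have exact Poisson intervals, log2 ratios exact conditional binomial intervals and shares Clopper-Pearson intervals. Differences of log2 ratios use Poisson variances. Depth per class limits what could be seen: members under 20 UMIs over both libraries were not judged. With 1 library per group no test was run. The calculation was tested on simulated data. Sex was called from Xist and Y-linked genes (at least 1 UMI).

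All 8 members are described, but not every member in every class with at least 100 cells per library. Other genes come from lists of partners, route, targets, heat shock and other early genes, or are the 3 most like a member (at least 500 UMIs). Not every gene of the partner list is reported here. Egr1, IC-like and PC-like cells were named after their values were seen. Members and lists were chosen with earlier results of these data known. Alternatives on Malat1, the DCT/CNT-like clusters, the sexes within Malat1-rich cells (also by segment) and immune-like cells without neutrophils were chosen after seeing the data. Promoters are from RefSeq (GRCm38.p6). The tools were Python 3.11.15, scipy 1.17.1 and scikit-learn 1.9.0.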

Additional observations from a re-analysis of the deposited data

Results flagged for a closer look

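In Malat1-rich PT-like cells some members moved one way in female-called and the other way in male-called cells. The difference between the sexes was not tested, since each library holds 1 pool of mice. At 1 h the log2 ratio to 0 h was 0.45 in female-called and -0.54 in male-called cells for Fosb. For Jun it was 0.39 and -0.28, and for Jund 0.34 and -0.11. Most male-called cells were PT-S3-like and most female-called cells PT-S1/S2-like. At 4 h it was 0.30 and -0.67 for Jun, and 0.66 and -0.90 for Junb.

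Some members had opposite signs in a tubule-like class and in endothelial-like cells at 1 h, and these differences were not tested either. Fos had a log2 ratio of 0.42 in PT-like and 1.63 in TAL-like cells, against -1.0 in endothelial-like cells. Junb had 1.13 in PT-like and 0.73 in DCT/CNT-like cells, against -0.57 in endothelial-like cells. Jun had 0.97 in TAL-like and -0.31 in endothelial-like cells. The sign was not opposite for Fos (-0.43) and Jun (-0.43) in DCT/CNT-like cells, which hold the most Kl, or for Jun in PT-like cells (-0.08), and female-called endothelial-like cells had 0.98 for Fos. Within DCT/CNT-like cells Fos was level in the Slc12a3-led cluster and fell in the S100g-led clusters. In Malat1-rich DCT/CNT-like cells the called sexes differed in sign for Fos, as given above.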

How the results depend on the processing

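No paired analysis was possible because each group is 1 library. Of 158 alternative values for 18 counts, differences and shares, 104 stayed alike, 54 moved and 0 reversed. Of 659 for 51 single-member ratios, 386 stayed, 269 moved and 4 reversed.

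In PT-like cells the count higher at 1 h (1, Junb) was 2 at 25% mitochondrial UMIs (with Atf3), 2 with no UMI minimum (with Fosl1) and 2 in Malat1-poor cells at 0.4% (with Fos). It was 3 in female-called cells (Fos, Junb, Atf3), in Malat1-rich ones too, and 0 in male-called cells and in Malat1-rich cells at limits of 0.1%, 0.2% and 0.4%. The count lower at 4 h (3) was 1 in female-called and in Malat1-poor cells. That at 12 h (4) was 2 in female-called cells, 3 in Malat1-rich cells, 1 in Malat1-poor cells and 2 at 0.4%, with Jun passing in neither Malat1 group. In DCT/CNT-like cells the 1 h count (1, Atf3) was 0 in male-called cells and 2 in female-called, Slc12a3-led (both with Junb) and Malat1-rich cells (with Fosl2). In TAL-like cells the 1 h count (2) was 1 at 25% mitochondrial UMIs (Jun), 1 at 100 UMIs (Fos) and 0 in male-called cells. In endothelial-like cells the count lower at 1 h (0) was 1 (Fos) with 25% mitochondrial UMIs, doublets kept, CPM without mitochondrial UMIs, equal cell weights, male-called cells or the neutrophil subtraction. The count at 12 h (5) was 2 at 100 UMIs and in either sex. In T-like cells it was 1 (from 3) in female-called cells.

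Reversed signs were those of Jun at 12 h in Malat1-poor PT-like cells, 0.088, 0.077 and 0.050 at limits of 0.2%, 0.1% and 0.4%, and of Fosb at 1 h in male-called TAL-like cells, -0.30. Against immune-like, IC-like and neutrophil-free immune-like cells in place of endothelial-like cells, the 1 h difference was 0.89, 0.99 and 1.13 for Junb in PT-like cells, 0.49, 0.59 and 0.73 for Junb in DCT/CNT-like cells, and 1.30, 1.53 and 1.58 for Fos in TAL-like cells. For Atf3 in DCT/CNT-like cells it was 1.28 against IC-like cells. The Junb difference between PT segments (0.97) was 0.57 among Malat1-rich cells called male, and 0.12 among those called female. Thinned to 1000 UMIs, the share of PT-like cells with Junb was 2.55% at 0 h and 5.72% at 1 h, and with Jun 19.8% at 0 h. The causes were not tested, beyond fewer cells or UMIs where a setting keeps fewer. Atf3 outside DCT/CNT-like and PT-like cells, and Fosl1 in each class, rest on few UMIs.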
